A study of Caenorhabditis elegans with 24 samples.

Results

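The RNA response to heat of noNSUN animals was measured in 6 of the 24 libraries of the series, namely 3 of noNSUN Caenorhabditis elegans held at 27°C and 3 of noNSUN animals kept at 20°C, chosen by genotype and temperature as the labels give them. All 20447 genes counted in these libraries were considered, and 10815 of them had enough counts to be tested. noNSUN is a quadruple mutant in which 3 genes carry an alanine in place of the catalytic cysteine (allele mj473 of nsun-1, allele mj458 of nsun-2, allele mj457 of nsun-4) and nsun-5 carries a knockout allele, so that all 6 libraries lack the activity of the 4 enzymes. Synchronised populations were raised to adulthood over 3 days on plates with HB101 bacteria at 20°C, then shaken in liquid medium with the same food at either temperature for 4 h. RNA was taken from aliquots of the material used for ribosome footprinting, and the other 18 libraries hold RNA of wild-type (N2) animals in the same 2 conditions and ribosome footprints of both strains. Each library pools whole animals of every tissue, so that fewer cells of a type and less RNA per cell cannot be told apart, and p-values measure the spread between these samples.

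In animals, heat unfolds proteins and releases the transcription factor HSF-1, which binds heat-shock elements, runs of inverted nGAAn units, and induces chaperones such as the small heat-shock proteins and HSP70. The FOXO factor DAF-16 and the zinc-finger factor PQM-1 act on further stress and metabolic genes of C. elegans. NSUN proteins place a methyl group on carbon 5 of cytosines in tRNA and rRNA, and the comparison asks how animals without these enzymes adjusted their RNA to heat.

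Promoter sequences are shown for 6 of 12 genes, looked at one by one, that rose in noNSUN animals at 27°C. They were picked for the motif matches they hold, with and without a heat-shock element. Of the genes not shown, E01G4.5 and cyp-37B1 held none of the motifs searched. The windows are the bases before the start of each gene model, up to 250 or up to the next gene, read from the RefSeq genome of build WBcel235, 5′ to 3′ along the strand of the gene. Capitals mark any of the 6 motifs that were searched on both strands, which were the heat-shock elements TTCNNGAA and GAANNTTC (which can overlap each other), the DAF-16 element GTAAACA, the PQM-1 element TGATAAG, the XBP-1 element TGACGTG and the heat-shock associated site GGGTGTC. hsp-16.2 (chrV:1804958-1805177, minus strand) shares its 220 bases with the divergent neighbour hsp-16.41, while hsp-16.1 (chrV:9087783-9088032), hsp-17 (chrV:8385930-8386179), hsp-4 (chrII:7352646-7352895), cdr-4 (chrV:12408626-12408875) and mtl-1 (chrV:6691864-6692113) lie on the minus strand with 250 bases each.
hsp-16.2: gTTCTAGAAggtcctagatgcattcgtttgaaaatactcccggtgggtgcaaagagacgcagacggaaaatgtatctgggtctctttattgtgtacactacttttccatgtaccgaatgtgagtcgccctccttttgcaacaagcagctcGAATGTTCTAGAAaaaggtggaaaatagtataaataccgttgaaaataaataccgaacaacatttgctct
hsp-16.1: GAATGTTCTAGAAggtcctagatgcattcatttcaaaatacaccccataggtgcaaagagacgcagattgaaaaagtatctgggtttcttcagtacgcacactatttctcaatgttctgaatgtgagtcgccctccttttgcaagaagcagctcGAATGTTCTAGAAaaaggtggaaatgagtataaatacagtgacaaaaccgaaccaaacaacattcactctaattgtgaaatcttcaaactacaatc
hsp-17: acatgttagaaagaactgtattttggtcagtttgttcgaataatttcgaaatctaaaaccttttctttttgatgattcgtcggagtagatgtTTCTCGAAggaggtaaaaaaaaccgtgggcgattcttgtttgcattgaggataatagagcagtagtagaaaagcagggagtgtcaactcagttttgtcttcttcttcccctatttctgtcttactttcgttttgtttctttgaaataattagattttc
hsp-4: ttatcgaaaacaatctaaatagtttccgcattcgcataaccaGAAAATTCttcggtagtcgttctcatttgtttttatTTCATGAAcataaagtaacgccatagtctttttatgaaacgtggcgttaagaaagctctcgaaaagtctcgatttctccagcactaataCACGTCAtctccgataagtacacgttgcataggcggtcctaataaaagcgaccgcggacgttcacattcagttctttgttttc
cdr-4: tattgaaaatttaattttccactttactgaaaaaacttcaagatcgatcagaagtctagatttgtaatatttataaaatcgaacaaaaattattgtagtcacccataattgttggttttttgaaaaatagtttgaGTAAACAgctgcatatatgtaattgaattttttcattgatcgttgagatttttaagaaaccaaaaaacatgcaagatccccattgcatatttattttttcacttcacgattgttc
mtl-1: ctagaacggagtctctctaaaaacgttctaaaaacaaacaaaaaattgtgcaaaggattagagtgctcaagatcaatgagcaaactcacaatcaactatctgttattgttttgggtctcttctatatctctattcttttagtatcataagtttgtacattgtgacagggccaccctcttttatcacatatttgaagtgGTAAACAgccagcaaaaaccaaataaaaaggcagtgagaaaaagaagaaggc

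hsp-16.2 and hsp-16.1 held several heat-shock elements, hsp-17 held 1, and hsp-4 held 1 of each orientation with an XBP-1 element, whereas cdr-4 and mtl-1 held no heat-shock element and 1 DAF-16 element each. Among genes that fell, TGATAAG was frequent, and 2 examples from the named genes below, picked after their motifs were seen, are clec-48 (chrV:18157776-18158025, plus strand) and T05E12.6 (chrV:17089443-17089692, minus strand), each with a heat-shock element as well.
clec-48: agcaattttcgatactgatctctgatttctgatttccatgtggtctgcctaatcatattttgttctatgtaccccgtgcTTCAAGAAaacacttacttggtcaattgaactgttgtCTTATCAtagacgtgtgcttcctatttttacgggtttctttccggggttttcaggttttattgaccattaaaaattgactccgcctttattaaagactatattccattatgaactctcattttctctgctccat
T05E12.6: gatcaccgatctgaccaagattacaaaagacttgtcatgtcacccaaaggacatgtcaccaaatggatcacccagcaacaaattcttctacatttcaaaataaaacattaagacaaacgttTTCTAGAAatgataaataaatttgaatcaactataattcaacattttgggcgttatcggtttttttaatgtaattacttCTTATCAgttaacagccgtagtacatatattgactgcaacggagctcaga

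**Figure D1:**
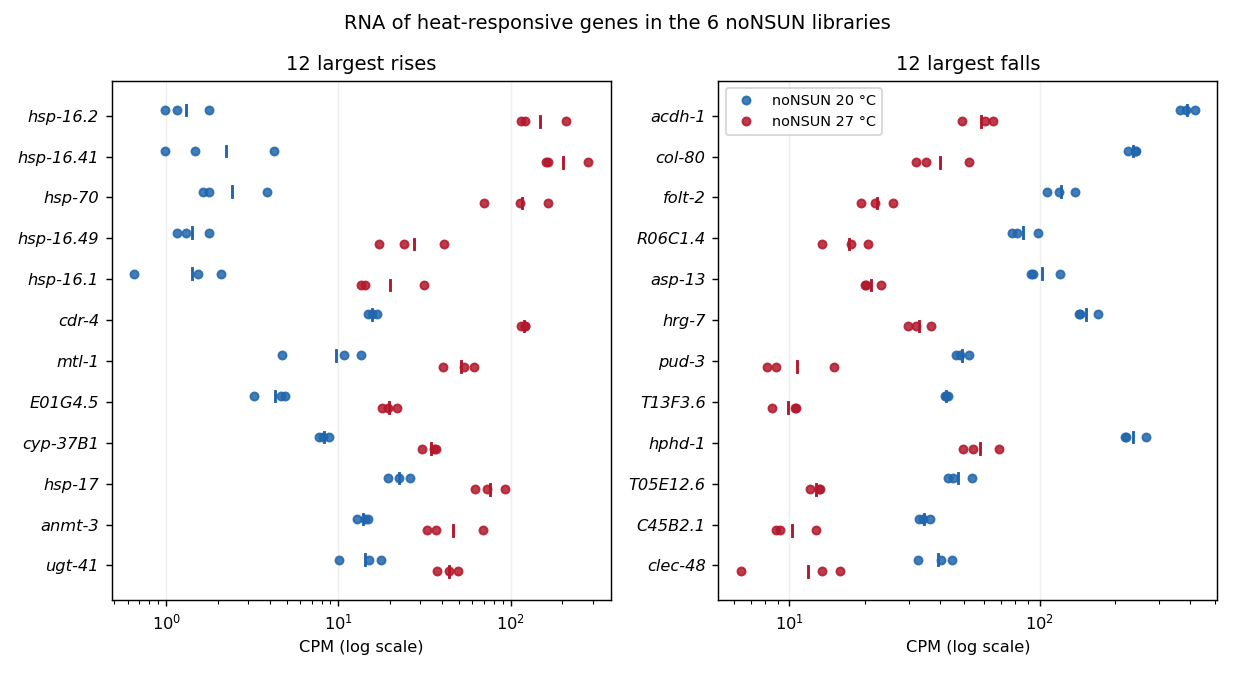
RNA levels in CPM (counts scaled to the normalised library total, log axis) in each of the 6 noNSUN libraries, with 20°C and 27°C libraries as separate points. Shown are the 12 genes that rose most and the 12 that fell most at 27°C. In every one of these 24 genes the 3 libraries at 27°C lie on one side of the 3 at 20°C.

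Replicate quality was checked first. The 6 noNSUN RNA libraries held 2093410 to 3412334 counts on genes, and 9684 to 10514 genes reached 10 counts in a library. A gene with 0 counts in a library could lie below 0.879 to 1.43 CPM (the level of 3 counts over the unscaled library total, counting error only). The mutated nsun genes were read in all libraries: nsun-5 stood at 13.1, 10.6 and 13.4 CPM at 20°C, against 12.4, 16.23 and 13.9 CPM at 27°C in noNSUN, against 15.8 to 25.3 CPM in the 6 wild-type libraries. Transcripts of nsun-1, nsun-2 and nsun-4 were present too, and point mutations leave counts per gene uninformative on whether these alleles are mutant. Whole-animal markers were present (vit-2 of yolk at 20113 to 31333 CPM, unc-54 of muscle at 2084 to 2978 CPM, rme-2 of oocytes at 1122 to 1550 CPM), and the 31 major sperm protein genes summed to 0 to 2.32 CPM. Of the 20 single marker genes of yolk, oocytes, intestine, muscle, neurons, epidermis and moulting, only the intestinal protease cpr-6 passed the test without the replicate block. Among the wild-type libraries that set the shared spread, replicate 1 at 20°C stood apart, and without it 298 genes passed the test in noNSUN animals. Replicate 1 stood somewhat apart in noNSUN too. Its rank correlations with replicates 2 and 3 were 0.971 and 0.975 at 27°C, against 0.987 between replicates 2 and 3. At 20°C both were 0.980, against 0.990.

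At 27°C the largest rises in noNSUN animals were those of heat-shock genes, and the largest falls included genes of propionate breakdown, an aspartyl protease and a cuticle collagen. With the 12 RNA libraries fitted together without the replicate number, 1.04% of the 10815 genes passed an adjusted p of 0.05, 51 of them risen (0.472%) and 61 fallen (0.564%). Of these, 28 rose and 25 fell at least 2-fold. The log2 fold changes of the risen genes ran from 0.47 to 6.76 with a median of 1.16, those of the fallen genes from -2.74 to -0.40 with a median of -0.81, and the median of all genes tested was 0.01. In every called gene the 27°C and 20°C libraries did not overlap, as in 18.9% of the genes tested. Libraries of replicate 1 deviated together, with a correlation of 0.543 between the noNSUN residuals at 20°C and 27°C. The same pairing gave 0.262 for replicate 2 and 0.238 for replicate 3, against up to 0.265 between noNSUN libraries of different numbers. With the replicate number as a block 443 genes (4.1%) passed, 201 risen (1.86%) and 242 fallen (2.24%), including each gene called without the block. Replicate 1 weighed on the plain count, which was 583 without it in every group, 15 without replicate 2 and 12 without replicate 3. Without the block 984 genes had an unadjusted p under 0.05, compared with 1771 with it. The shares of 1.04% called without the block and 4.1% with it are the background for the list counts below.

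**Figure D2:**
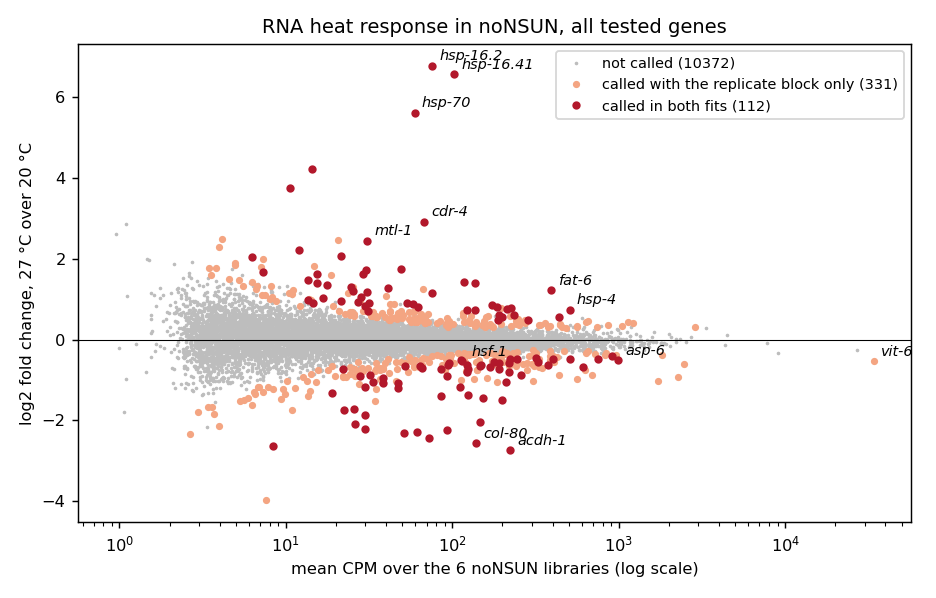
log2 fold change at 27°C against 20°C in noNSUN animals (y axis) against mean RNA level (x axis, log scale) for the 10815 genes tested, with the genes that passed the test with and without the replicate block marked. hsp-16.2, hsp-16.41, hsp-70, hsp-16.49 and hsp-16.1 stand above all other called genes, and most other genes lie close to 0.

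Chromosome V carried 49 of the called genes (43.8%) and 17.8% of the genes tested. The other nuclear chromosomes carried 8 to 17 each. On chromosome V 2.55% of the genes tested passed, 20 risen and 29 fallen, against 0.439% to 0.971% on the others, and with the block the share was 5.99% against 3.18% to 4.04%. None of the 11 mitochondrial genes tested passed in either edgeR fit. Protein-coding genes made up 110 of the called genes and pseudogenes the other 2. A counted gene on the opposite strand overlapped 20 of them (17.9%) and 26.2% of all genes tested. For these the source of reads is uncertain, since the strand setting of the counting is not given in the sources used here. Called genes named below with such an overlap include hsp-70, hsp-17, ahsa-1, anmt-3, cyp-37B1, acs-1, col-80, hrg-7 and T13F3.6.

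The largest increases were those of small heat-shock proteins, ATP-independent holdases that bind unfolding proteins. hsp-16.2 (WBGene00002016, chrV:1804334-1804957) had 1.16, 1.77 and 0.981 CPM at 20°C, against 211, 115 and 122 CPM at 27°C. The 3 libraries at 20°C lay near the floor and all 3 at 27°C lay above 100 CPM. The log2 fold change came to 6.76 with an SE of 0.366 (adjusted p = 1.16e-06). Summed over the libraries, counts went from 12 to 1024, a ratio of 111 with a 95% counting interval of 63.5 to 216. Its divergent neighbour hsp-16.41 (chrV:1805178-1805875) went from 4.24, 1.48 and 0.981 CPM to 282, 161 and 165 CPM, a ratio of 95.5 (60.9 to 159) with 6.55 on the log2 scale (SE 0.418, adjusted p = 3.8e-06). The pair thus rose from near the floor to the highest 27°C levels of the small heat-shock genes that were called. For both genes the library of replicate 1 was the highest at 27°C.

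A further cluster of the same family lies elsewhere on chromosome V. hsp-16.49 (chrV:9089280-9089766) went from 1.16, 1.77 and 1.31 CPM to 41.2, 17.2 and 24 CPM (log2 fold change 4.21, SE 0.463, adjusted p = 4.51e-04). hsp-16.1 (chrV:9087293-9087782) went from 1.54, 2.07 and 0.654 CPM to 31.6, 14.4 and 13.5 CPM (log2 fold change 3.74, SE 0.473, adjusted p = 0.00147). Both have near-identical copies in the genome, hsp-16.48 and hsp-16.11, among which reads could be split, so that their own levels are uncertain while the direction was the same in all 3 libraries. Summed counts rose from 13 to 189 and from 13 to 135, ratios of 18.97 (10.83 to 36.3) and 13.5 (7.66 to 26.1). hsp-17, a small heat-shock gene with a clear level already at 20°C, went from 26.2, 22.5 and 19.3 CPM to 92.9, 73.3 and 62.3 CPM (log2 fold change 1.75, SE 0.265, adjusted p = 0.00519). It overlaps F52E1.14 on the other strand. Of the 11 small heat-shock genes tested, these 5 rose and none fell, and the median of the list was 0.38 (0.56 in wild type).

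hsp-70 (WBGene00002026, chrI:9320325-9322519), the heat-inducible cytosolic HSP70, stood at 3.85, 1.77 and 1.64 CPM at 20°C, but at 165, 70 and 113 CPM at 27°C. Its summed counts went from 21 to 804, a ratio of 49.9 (32.5 to 81.1), with an adjusted p of 1.13e-05, and it overlaps uggt-2 on the opposite strand. The constitutive members changed little in comparison. hsp-1, the major HSC70, stood at 3244, 2792 and 3006 CPM at 20°C, against 3781, 3213 and 3948 CPM at 27°C (log2 fold change 0.28, adjusted p = 0.503), so that the ranges overlapped. hsp-90 stood at 2589, 2458 and 2652 CPM against 3412, 2819 and 3361 CPM (0.32, adjusted p = 0.333, and 0.0336 with the replicate block). The HSP110 gene hsp-110 had a log2 fold change of 0.08 (adjusted p = 0.925).

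The called cofactors of HSP70 and HSP90 rose by less than 2-fold. sti-1, the HSP70-HSP90 organising protein, went from 172, 164 and 141 CPM to 282, 235 and 290 CPM (log2 fold change 0.76, SE 0.113, adjusted p = 0.00434). ahsa-1, an activator of the HSP90 ATPase, went from 153, 168 and 160 CPM to 243, 223 and 242 CPM (0.56, adjusted p = 0.0106), and the DnaJ gene dnj-19 had a log2 fold change of 0.48 (adjusted p = 0.0209). Neither sti-1 nor ahsa-1 had overlapping libraries. Among the 18 cytosolic HSP70, HSP110, HSP90 and cofactor genes tested, 4 rose and none fell, which became 11 and 0 with the block, and the median was 0.39. The genes that passed with the block alone included daf-41 (0.38, block adjusted p = 0.0109), the p23 cochaperone, cdc-37 (0.44, 0.0102), the kinase-specific cochaperone, and fkb-6 (0.45, 0.00765), an immunophilin. The pair F44E5.4 and F44E5.5, HSP70 genes whose sequences are near copies of each other, had larger but more variable values. F44E5.4 went from 8.09, 7.69 and 3.27 CPM to 47.2, 13 and 44.1 CPM (log2 fold change 2.46, adjusted p = 0.127, block adjusted p = 0.00147). These members were named after their values were seen.

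The chaperonin CCT folds actin and tubulin. All 8 of its subunit genes had positive log2 fold changes with a median of 0.33 (0.21 in wild type). None passed without the block in edgeR, while 7 had an unadjusted p under 0.05, DESeq2 called 3, and 6 passed with the block. cct-4 was the closest to the threshold (322, 308 and 300 CPM against 428, 391 and 415 CPM, log2 fold change 0.41, adjusted p = 0.0529, block adjusted p = 0.00249).

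In the endoplasmic reticulum, hsp-4, the inducible BiP, went from 384, 353 and 400 CPM to 682, 564 and 650 CPM (log2 fold change 0.74, SE 0.118, adjusted p = 0.0066). It was the sole called gene of 18 tested chaperones and unfolded protein response genes, whose median was 0.24. With the block 7 rose and none fell, among them the calreticulin crt-1 (0.43, block adjusted p = 0.00159), the protein disulphide isomerase pdi-6 (0.49, 0.00193), the other BiP gene hsp-3 (0.33, 0.0365) and the factor xbp-1 (0.48, 0.02), all named after their values were seen. Among 10 mitochondrial chaperone and unfolded protein response genes none passed in edgeR, 1 had an unadjusted p under 0.05 and 1 passed in DESeq2. The mitochondrial HSP70 hsp-6 stood at 575, 523 and 528 CPM against 744, 702 and 745 CPM (log2 fold change 0.43, adjusted p = 0.0505, and 0.00122 with the block). The median of this list was 0.12, against -0.02 in wild type.

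The stress factors themselves showed no called change among 10 genes tested in edgeR, with 3 at an unadjusted p under 0.05 and 0 in DESeq2. hsf-1 stood at 129, 147 and 145 CPM at 20°C, against 86.1, 106 and 97.5 CPM at 27°C. All 3 heated libraries lay below the 3 others (log2 fold change -0.54, adjusted p = 0.191, and 0.00336 with the block). atf-4, a factor of the integrated stress response, had a log2 fold change of 0.60 (adjusted p = 0.211, block adjusted p = 0.0293). The 4 nsun genes gave no call in edgeR, 2 had an unadjusted p under 0.05, and DESeq2 called 0. nsun-2 had a log2 fold change of -0.38 (adjusted p = 0.107, block adjusted p = 0.0233), nsun-1 of -0.24, nsun-4 of -0.16 and nsun-5 of 0.20.

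**Figure D3:**
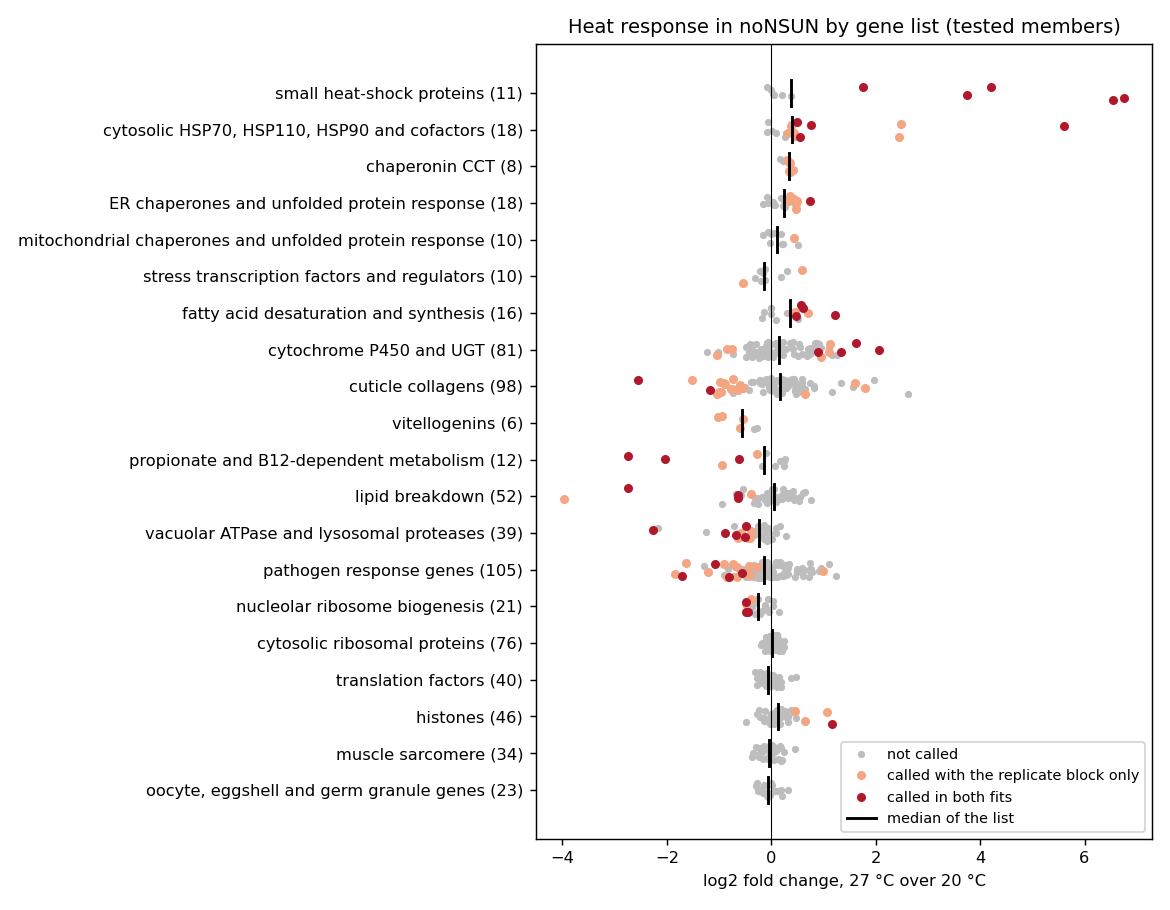
log2 fold changes at 27°C against 20°C in noNSUN animals for the tested members (points) of 20 of the gene lists. The median of each list and the members that passed the test are marked. Small heat-shock genes spread up to 6.76, while the median of vitellogenins (-0.57) lies below 0.

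The next largest rises were not of heat-shock genes. cdr-4 (WBGene00010470, chrV:12407366-12408625), a cadmium-responsive gene of the glutathione S-transferase kind, had 15.8, 14.8 and 16.7 CPM at 20°C, against 122, 115 and 121 CPM at 27°C. The libraries of each temperature differed little, and the log2 fold change was 2.92 (SE 0.189, adjusted p = 3.8e-06). mtl-1, a metallothionein, went from 4.73 to 13.5 CPM (mean 9.67 ± 4.48, SD, n = 3) to 54, 40.3 and 61.1 CPM (2.44, SE 0.345, adjusted p = 0.00291). E01G4.5 went from 4.62, 3.25 and 4.91 CPM to 17.9, 21.8 and 19.3 CPM (4.61-fold, adjusted p = 0.00139). None of these 3 promoters held a heat-shock element.

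Some enzymes that modify foreign compounds rose. The cytochrome P450 cyp-37B1 went from 8.86, 7.69 and 8.18 CPM to 35.7, 30.6 and 37.1 CPM (log2 fold change 2.06, adjusted p = 1.95e-04). The UDP-glucuronosyltransferases ugt-41 (17.7, 10.1 and 15 CPM against 49.4, 37.6 and 44.1 CPM, 1.62, adjusted p = 0.00365) and ugt-63 (1.34, adjusted p = 0.00604) rose, as did cyp-13A5 (0.89, adjusted p = 0.0114). These were the 4 called of 81 tested genes of both families (4.94%, against 1.04% of all genes tested). None of them fell, and the median was 0.15. With the block 7 rose and 3 fell, where 4.1% of all genes passed. gst-1, a glutathione S-transferase, rose (0.62, adjusted p = 0.0263). It was the sole called gene of 31 glutathione and redox genes (3.23%, against 1.04% of all genes tested), whose median was 0.17. anmt-3, named as an amine N-methyltransferase, went from 14.2, 14.8 and 12.8 CPM to 69.1, 32.9 and 36.7 CPM (1.72, SE 0.319, adjusted p = 0.0189), with replicate 1 again the highest at 27°C.

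Several fatty acid desaturases rose. fat-6, a stearoyl-CoA desaturase that makes oleic acid, went from 254, 218 and 234 CPM to 623, 477 and 543 CPM (log2 fold change 1.22, SE 0.129, adjusted p = 3.36e-04). The 2 groups lay far apart. fat-2, which makes linoleic acid from oleic acid, went from 320, 365 and 378 CPM to 510, 533 and 531 CPM (0.57, adjusted p = 0.0064). The omega-3 desaturase fat-1 (0.61, adjusted p = 0.0314) and fat-4, a desaturase late in the path to polyunsaturated fatty acids (0.47, adjusted p = 0.0424), rose as well, although fat-4 stayed called in 2 of the 15 fits that left out a library or a replicate number. These 4 were the called genes among 16 tested of fatty acid desaturation and synthesis, with none fallen and a median of 0.37 (0.09 in wild type). With the block 7 rose, fat-3 (0.70, block adjusted p = 0.0196) and fat-5 (0.46, 0.0184) among them, both named after their values were seen. In the test between strains no gene of the list passed in edgeR.

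The largest fall was that of acdh-1 (WBGene00016943, chrI:6497436-6499560), the acyl-CoA dehydrogenase that opens the B12-independent breakdown of propionate. It had 363, 416 and 383 CPM at 20°C, against 65, 60.3 and 49.1 CPM at 27°C, which is -2.74 on the log2 scale (SE 0.22, adjusted p = 2.07e-05). hphd-1, a hydroxyacid-oxoacid transhydrogenase of the same path, went from 266, 219 and 221 CPM to 68.7, 54.3 and 49.5 CPM (-2.04, SE 0.282, adjusted p = 0.0025). The hydrolase hach-1, which also belongs to it, fell from 115 ± 4.36 to 74.6 ± 1.70 CPM (SD, n = 3, no overlap) (-0.62, adjusted p = 0.0452). Of 12 tested genes of propionate and B12-dependent metabolism 3 fell and none rose, and with the block 5 fell, which added ech-6 (-0.94, block adjusted p = 8.02e-05) and alh-8 (-0.28, 0.0485), the other steps of that path in C. elegans, both named after their values were seen. The median of the list was -0.14.

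Of 52 tested genes of lipid breakdown, 3 fell and none rose (5.77%, against 1.04% of all genes tested), with a median of 0.04. They were acdh-1, which the list shares with the propionate genes, the lysosomal lipase lipl-5 (459, 458 and 463 CPM against 325, 293 and 268 CPM, log2 fold change -0.64, adjusted p = 0.00633) and the acyl-CoA synthetase acs-1 (-0.64, adjusted p = 0.0319). With the block 5 fell.

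Some lysosomal proteases fell. asp-13, an aspartyl protease, went from 92.4, 120 and 94.2 CPM to 20.1, 23.2 and 20.1 CPM (log2 fold change -2.27, SE 0.177, adjusted p = 1.69e-05). The cathepsin B-like genes cpr-1 (368, 308 and 336 CPM against 186, 172 and 189 CPM, -0.89, adjusted p = 0.00219) and cpr-6 (784, 751 and 731 CPM against 467, 469 and 478 CPM, -0.68, adjusted p = 0.0025) fell with narrow replicate ranges. asp-6, a further aspartyl protease, fell from 1169, 1130 and 1202 CPM to 802, 806 and 850 CPM (-0.51, adjusted p = 0.0317). The cathepsin L gene cpl-1 was the last of the 5 called among 39 tested vacuolar ATPase and lysosomal protease genes. That is 12.8% of the list, against 1.04% of all genes tested. None rose, the median was -0.24 (-0.34 in wild type), and 10 fell with the block. hrg-7, a secreted protein of the aspartyl protease family that signals heme status between tissues, went from 144, 145 and 171 CPM to 36.6, 32 and 29.8 CPM (-2.23, SE 0.164, adjusted p = 1.13e-05).

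folt-2, named as a folate transporter, went from 119, 138 and 107 CPM to 22, 26 and 19.3 CPM (log2 fold change -2.44, SE 0.305, adjusted p = 0.00139). pud-3, of a family first known for high protein levels in dauer larvae and insulin receptor mutants, went from 48.1, 52 and 46.5 CPM to 15.1, 8.81 and 8.12 CPM (SE 0.398 on the log2 scale, adjusted p = 0.017), to 0.218 of its level. Of the 4 pud genes tested, pud-3 was the one called, 3 fell with the block, and the median was -1.33. The family includes near-identical copies. R06C1.4 (log2 fold change -2.32, adjusted p = 0.00156), T13F3.6 (to 0.234 of its level, adjusted p = 0.00147), T05E12.6 (-1.87, adjusted p = 9.91e-05) and C45B2.1 (-1.74, adjusted p = 0.00525) complete the 12 largest falls with col-80 and clec-48, which are described with their families.

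The called genes of the pathogen response list all fell without the block. clec-48, with a C-type lectin domain, went from 32.7, 40.5 and 44.5 CPM to 6.41, 13.4 and 15.9 CPM (log2 fold change -1.71, SE 0.251, adjusted p = 0.00411). clec-223 (-1.08, adjusted p = 0.0236), clec-50 (-0.56, adjusted p = 0.0215) and the lysozyme ilys-5 (-0.81, adjusted p = 0.0215) fell as well. Of 105 tested genes of the list 4 were called as fallen and none as risen (3.81%, against 1.04% of all genes tested). The median was -0.15, and 42 of the 105 had a positive log2 fold change. With the block 16 fell and 1 rose, where 4.1% of all genes passed.

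col-80, a cuticle collagen, went from 226, 241 and 243 CPM to 35.2, 32 and 52.2 CPM (log2 fold change -2.56, SE 0.236, adjusted p = 8.57e-05). col-98 went from 173, 148 and 143 CPM to 72.8, 59.8 and 72.7 CPM (-1.17, adjusted p = 0.0209). These 2 were the called members of 98 tested collagens (2.04%, against 1.04% of all genes tested). With the block 18 fell and 3 rose, where 4.1% of all genes passed. The median over the list was 0.16, opposite in sign to its called members and to the wild-type median of -0.28, and it depended on single libraries: it was -0.32 without noNSUN 27°C replicate 1, -0.10 without noNSUN 20°C replicate 2, -0.02 without noNSUN 20°C replicate 3, and 0.57 without noNSUN 20°C replicate 1. The summed level of 174 collagens was 10689, 8930 and 9338 CPM at 20°C, against 7666, 6366 and 7611 CPM at 27°C, so that the sums did not overlap. These sums are led by the most abundant genes.

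The 6 vitellogenins, yolk proteins made in the intestine of egg-laying adults, summed to 82315, 87960 and 93257 CPM at 20°C, against 53108, 66570 and 74556 CPM at 27°C, sums that were not tested. No vitellogenin passed without the block in edgeR, although 4 had an unadjusted p under 0.05 and DESeq2 called 2. With the block vit-1, vit-3, vit-4 and vit-6 fell. vit-1 went from 2144, 2260 and 2509 CPM to 871, 1232 and 1292 CPM (log2 fold change -1.03, adjusted p = 0.0609, block adjusted p = 4.21e-05) and vit-4 had a log2 fold change of -0.94 (block adjusted p = 5.96e-05). At both temperatures the library of replicate 1 was the lowest for vit-1 and vit-4. vit-2 overlapped between the groups (-0.27, adjusted p = 0.858), and the median of the list was -0.57 (-0.58 in wild type).

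Some nucleolar genes of ribosome production fell, each by less than 2-fold. fib-1, the rRNA 2′-O-methyltransferase fibrillarin, went from 499, 428 and 485 CPM to 316, 333 and 357 CPM (log2 fold change -0.49, SE 0.093, adjusted p = 0.023). nucl-1, a nucleolin, went from 568, 612 and 595 CPM to 418, 412 and 438 CPM (-0.48, SE 0.0822, adjusted p = 0.0106), and nol-56, of the box C/D ribonucleoproteins, from 387, 350 and 361 CPM to 260, 278 and 267 CPM (-0.45, adjusted p = 0.0232). In each of the 3 genes the groups were apart by more than the spread of the replicates. These were the 3 called of 21 tested genes, none rose, 5 fell with the block and the median was -0.25 (-0.23 in wild type). imb-3, an importin beta, fell (-0.40, adjusted p = 0.0365, called in 2 of the 15 leave-out fits). It was the only called gene of 40 tested nuclear pore and transport genes (2.5%, against 1.04% of all genes tested), with a list median of -0.06. his-41 rose from 23.5, 16.8 and 17 CPM to 54.9, 35.2 and 37.9 CPM (1.16, SE 0.224, adjusted p = 0.0238). It was the one called of 46 tested histone genes (2.17%), a family of near-identical copies. Of the histone genes 4 rose with the block, and their median was 0.13.

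The other lists gave no call without the block. For comparison, 984 of all 10815 genes tested had an unadjusted p under 0.05, and 4.1% passed with the block. Among 65 mitochondrial ribosomal protein genes edgeR called 0 without the block, 12 had an unadjusted p under 0.05 and DESeq2 called 0, with a median of 0.18, and 2 rose with the block. Among 46 oxidative phosphorylation genes 0 were called, 3 had an unadjusted p under 0.05, DESeq2 called 0, the median was 0.13 and 2 rose with the block. Among 66 neuropeptide and insulin-like genes 0 were called, 3 had an unadjusted p under 0.05, DESeq2 called 0 and 1 fell with the block. Their median of 0.10 turned to -0.01 with a length and GC offset. The remaining 10 lists, with 309 genes tested, gave no call in edgeR with or without the block, 11 genes (3.56%) at an unadjusted p under 0.05 and 0 calls in DESeq2. Their medians were 0.02 for 76 cytosolic ribosomal proteins (-0.04 with the offset), -0.07 for 40 translation factors, 0.04 for 32 aminoacyl-tRNA synthetases, 0.07 for 33 proteasome subunits, -0.07 for 23 oocyte, eggshell and germ granule genes, -0.10 for 29 DNA replication genes, -0.04 for 34 muscle sarcomere genes (0.02 with the offset), 0.03 for 34 hedgehog-related and moulting genes, 0.11 for 5 osmotic stress genes and 0.27 for the 3 of 69 sperm genes that could be tested.

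Across the 10685 promoters of tested protein-coding genes, from 250 bases before to 50 after the start, TTCNNGAA occurred in 19.2%, compared with 19 of the 51 risen genes (37.3%) and 14 of 59 fallen genes (23.7%). GAANNTTC occurred in 18.4%, 14 (27.5%) and 11 (18.6%). GTAAACA was found in 5.06% of all, 6 of the risen (11.8%) and 2 of the fallen (3.39%). TGATAAG showed the widest gap, with 9.35% of all, 6 of the risen (11.8%) and 22 of the fallen (37.3%). Without the 50 bases after the start its shares were 8.4% and 33.9% in all and in the fallen genes. TGACGTG was found in 2.86% of all, 2 risen and 3 fallen genes, and GGGTGTC in 1.12%, 0 and 2. Of 12 risen genes looked at one by one (the largest rises other than hsp-70, and hsp-4), 8 held a heat-shock element. The other 4 (cdr-4, mtl-1, E01G4.5 and cyp-37B1) held none. Of the 8, hsp-16.2 and hsp-16.41 share their bases before the start, and hsp-16.1 and hsp-16.49 lie in the same cluster. The shares of the risen genes count each of them separately. anmt-3 held a match only with the 50 bases after the start included. Of 10 fallen genes looked at in the same way (the 12 largest falls other than acdh-1 and R06C1.4), 4 held a heat-shock element. Over whole sets, a heat-shock element of either orientation was in 32.5% of all tested promoters, 45.1% of the risen and 35.6% of the fallen. A match of letters is a description, and was not tested as a binding site.

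The responses of noNSUN and wild-type animals were then set side by side. The 2 comparisons share no library, but they share the estimate of spread and the replicate numbers. In wild type 102 genes passed (0.943%). Of the genes called in noNSUN, 111 had the same sign in wild type and 1 did not, compared with a shared sign in 66.7% of all genes tested, and 72 were called in both, which is 64.3% of the noNSUN genes and 70.6% of the wild-type genes. Among risen genes 36 of 51 were shared and among fallen genes 36 of 61. For the 51 risen genes the median log2 fold change was 1.16, against 1.03 in wild-type animals, and for the 61 fallen genes -0.81 against -0.74. Values for genes called in noNSUN were larger there in 69 and smaller in 43, and values for genes called in wild type were larger in wild type in 73 of 102. Each of these sets was chosen by the values of its own strain. In the test of the difference itself, 0 genes passed in edgeR (0%), 125 had an unadjusted p under 0.05, and 0 passed with the block or in DESeq2.

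**Figure D4:**
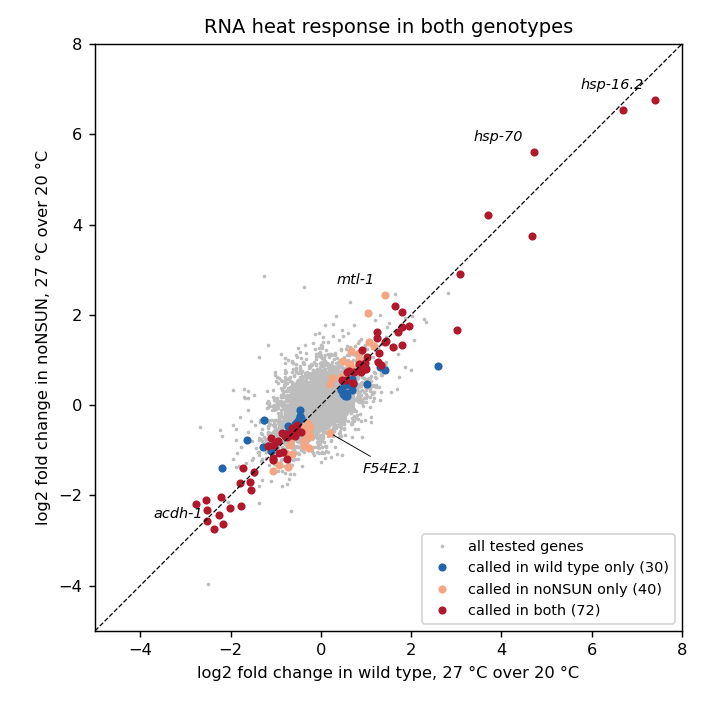
log2 fold change at 27°C against 20°C in noNSUN (y axis) and in wild type (x axis) for the genes tested, with genes called in both strains or in one of them marked. Points called in noNSUN lie close to the line of equal response, and all but 1 have the same sign in both.

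Of the 24 genes with the largest changes, 23 passed in wild type as well and all 24 had the same sign there. When single libraries or a replicate number were left out, these genes stayed called in 8 to 15 of 15 fits. hsp-16.2 had a log2 fold change of 7.39 in wild type, hsp-16.41 of 6.70, cdr-4 of 3.08 and acdh-1 of -2.37. hsp-70 had 4.72 in wild type, with a difference of 0.89 (SE 0.657). The exception was mtl-1, with 1.43 in wild type (adjusted p = 0.0915) and a difference of 1.01 (SE 0.493, unadjusted p = 0.0604). For none of these genes did the difference pass the adjusted threshold.

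F54E2.1 was the one called gene with opposite signs. In noNSUN it fell from 137, 161 and 149.2 CPM to 94.8, 109 and 87.8 CPM (log2 fold change -0.62, SE 0.107, adjusted p = 0.012), while in wild type it stood at 86.0, 78.8 and 78.0 CPM at 20°C, against 96.2, 89.1 and 94.2 CPM at 27°C (0.20, adjusted p = 0.602). At 20°C the noNSUN libraries lay above the wild-type libraries, and the heated noNSUN libraries lay near the wild-type level. The difference was -0.82 (SE 0.153, unadjusted p = 1.28e-04, adjusted p = 1). Without replicate 1, 5 genes passed the test of the difference: col-95 (1.11), cht-1 (0.64), dod-19 (-0.87), R193.2 (-0.96) and F54E2.1 (-0.89, adjusted p = 0.00614).

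The other genes named from that test were not called in noNSUN except for 1 pseudogene. B0310.2 had 0.36 in noNSUN and -0.68 in wild type (difference 1.03, unadjusted p = 0.00453), T28F4.4 0.41 and -0.62 (1.03, 0.00662), and F46B6.12 0.52 and -0.14 (0.66, 0.00827). pigl-1 had a difference of 0.85 and Y41D4B.11 of 0.64. In the other direction the acid phosphatase gene pho-14 (-0.55), D2096.7 (-0.61), ttc-1 (-0.65) and the pseudogene WBGene00013246 (-0.69) had unadjusted p of 0.00931 to 0.0153. WBGene00013246 was called in noNSUN, where it went from 47.7, 53.8 and 49.1 CPM to 21.5, 28.8 and 27.5 CPM (log2 fold change -0.95, adjusted p = 0.018), against -0.26 in wild type. In the test of the difference all of these failed the adjustment.

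Ribosome footprints of the same noNSUN lysates were set beside the RNA. These libraries were shallow, with 31776 to 396184 counts, and 1624 genes could be tested, of which 56 passed (3.45%), 17 risen (1.05%) and 39 fallen (2.4%). Of the genes called in RNA, 50 were tested in footprints, 47 with the same sign, compared with 61.5% of all 1599 genes tested in both assays, and 17 were called, all in the same direction as RNA. All 21 risen genes that could be tested rose in sign and 11 passed, with a median log2 fold change of 0.84 in RNA and 1.14 in footprints. Of these, hsp-16.2, hsp-16.41, hsp-70 and anmt-3 had 0 footprints in noNSUN at 20°C. Once past the count filter they could only rise, so their shared sign carries no weight of its own. hsp-16.1 (1 count in all at 20°C) and hsp-16.49 (3 counts) were close to that state. Of 29 fallen genes 26 had the same sign and 6 passed, with medians of -0.64 and -0.61. The 17 shared genes are 15.2% of the RNA calls and 30.4% of the footprint calls.

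hsp-16.2 had 0 footprints in the 3 libraries at 20°C and 65, 133 and 8 at 27°C, at least 20.8-fold higher with a floor of 3 counts over the group. hsp-16.41 (0 counts against 182, at least 18.3-fold higher), hsp-70 (0, against 46, 70 and 7, at least 12.4-fold higher) and anmt-3 (0 against 97, at least 9.77-fold higher) were likewise at 0 at 20°C. Each of these genes thus had footprints in heated animals and none at this depth in the others. hsp-16.1 rose from 1 to 181 counts (ratio 54.7, counting interval 9.70 to 2173) and mtl-1 from 6 to 160 (8.06, 3.62 to 22.3). acdh-1 fell in footprints with a log2 fold change of -2.89 (-2.74 in RNA), col-80 with -2.81 (-2.56) and hphd-1 with -2.80 (-2.04). The gap between the assays was not tested. fib-1 (0.14), nucl-1 (0.10) and nol-56 (-0.74), which fell in RNA, did not pass in footprints. Of these, nol-56 kept the sign of its RNA change.

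**Figure D5:**
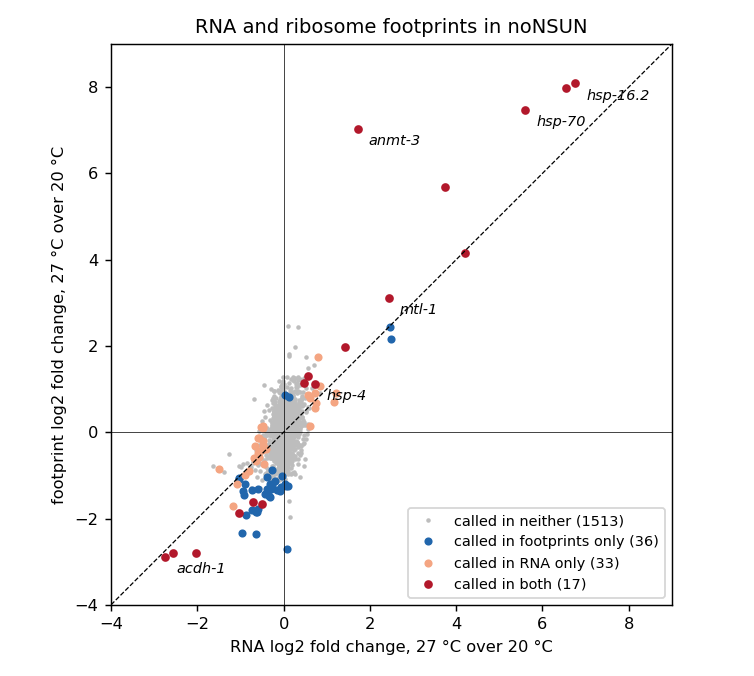
log2 fold change of ribosome footprints (y axis) against that of RNA (x axis) at 27°C against 20°C in noNSUN for genes tested in both, with genes called in RNA, in footprints or in both marked. The 17 genes called in both lie in the quadrants of equal sign.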

How the data were processed

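RNA of noNSUN and wild-type C. elegans at 20°C and 27°C was compared with 3 replicates per group. The deposited files hold raw counts per WormBase gene. Per the methods, the authors trimmed reads (Trimmomatic 0.39), removed rRNA reads, aligned to WBcel235 (HISAT2 2.1.0) and counted with HTSeq. The HTSeq version, strand setting and annotation release are not given in the sources used here. Reads of near-identical copies may therefore be lost or split.

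Counts were tested in R 4.3.3 with edgeR 4.0.16 (quasi-likelihood test, TMM scaling, Benjamini-Hochberg adjustment over all genes tested, threshold 0.05). Genes with at least 10 counts by the filterByExpr rule and 15 in total were kept. The 12 RNA libraries were fitted as 4 groups, and footprints separately. CPM are counts scaled by 1000000 over the TMM-scaled total of the tested genes in each library. Ratios of summed counts have exact 95% intervals, which cover counting error only. Named genes were the 12 largest called changes in each direction with a mean of at least 10 CPM over the 6 noNSUN RNA libraries and no overlap between the groups, the 5 lowest unadjusted p of the difference in each direction at 10 CPM or more, up to 4 called members of each list, and a fixed set of heat-shock, yolk and nsun genes. The members, the 33 gene lists and the motifs were chosen with earlier results of these data known. Alternatives were DESeq2 1.42.0, other scalings, no filter, the 6 noNSUN libraries alone, a length and GC offset, the replicate block and leaving out replicates. The scripts were tested on simulated data.

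The labels do not say that a replicate number marks a batch. The residuals of same-numbered noNSUN libraries at the 2 temperatures correlated at 0.238 to 0.543 (3 pairs, all above 0.1), against -0.400 to 0.265 (mean -0.165) for different numbers, where the highest (20°C replicate 3 with 27°C replicate 2) lay above the same-numbered pairs of replicates 2 and 3. Residuals were taken from the mean of each group of 3, which by itself pushes different numbers below 0. By the rule that each of the 3 same-numbered noNSUN pairs exceed 0.1, the numbers were taken to pair the samples. Over all 18 same-numbered RNA pairs, which the block covers, the lowest was 0.0904 (noNSUN 20°C replicate 2 with wild-type 27°C replicate 2), under that limit. The blocked fit is therefore given beside the plain one.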

Additional observations from a re-analysis of the deposited data

How the results depend on the processing

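The count of 51 risen and 61 fallen noNSUN genes together became 176 with DESeq2, 239 with the 6 noNSUN libraries alone, 443 with the replicate block, 1076 with both, and 439 with the block and a length and GC offset together, a combination chosen after seeing the data. It stayed within 1.5 times of that with other scalings, the offset or no filter. Leaving out replicates gave 12 to 583. It was 298 without wild-type 20°C replicate 1, 63, 51 and 58 without noNSUN 20°C replicates 1, 2 and 3, 55, 68 and 57 without noNSUN 27°C replicates 1, 2 and 3, and 583, 15 and 12 without number 1, 2 or 3 in every group. Of the 50 genes named as called, 50 kept the call with DESeq2, the 6 libraries alone, the offset or the block, 47 with no filter, 45 with upper-quartile scaling and 10 to 50 when replicates were left out. The wild-type count of 102 became 178 with DESeq2, 459 with the block, 512 with the block and offset, and 10 to 583 with replicates left out. The footprint count of 56 became 87 with the block and 31 to 35 with replicates left out. The difference between strains gave 0 to 5 calls. Values near 0 turned sign for nsun-5 (-0.011 without replicate 2, and -0.011 to 0.32 over all left-out replicates) and for cht-1 (-0.01, but 0.12 without replicate 1 and 0.01 with the offset). The causes were not tested.

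With 3 replicates and 2093410 to 3412334 counts per library, small changes of low genes were not detectable, and the footprints covered few genes.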

Other observations

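Further called genes outside the lists and the largest 24 were picked after their values were seen. acp-6, an acid phosphatase, stood at 294, 292 and 291 CPM at 20°C and at 104 ± 13.3 CPM (SD, n = 3) at 27°C in noNSUN (log2 fold change -1.49, adjusted p = 2.07e-05), and the wild-type value was the same (-1.49). epic-2 fell from 278, 282 and 289 CPM to 127, 114 and 170 CPM (-1.04, adjusted p = 0.0025) and fell in footprints too (-1.87). R193.2 went from 192, 168 and 174 CPM to 93.4, 57.5 and 55.3 CPM (-1.38, adjusted p = 0.0064). mbf-1, a transcriptional coactivator, rose from 95.9, 92.8 and 89.3 CPM to 154, 145 and 161 CPM (0.73, adjusted p = 0.00198). In all 4 genes the libraries of the 2 temperatures did not overlap.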
